A study of Mus musculus with 4 samples.

Results

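The 40 genes described here act in the G2 phase of the cell cycle and in mitosis, and they were taken by symbol from the 40092 rows of the deposited count table. All 40 had a row, and 39 had enough reads to be tested. The RNA came from GFP+ alveolar type II (AT2) cells, which make surfactant and renew the alveolar lining, sorted from mouse lung on day 14 after bleomycin, a drug that injures the lung. The 2 control libraries (Ctrl) came from Alkbh5 flox/+ mice and the 2 knockout libraries (A5-CKO) from Alkbh5 flox/flox mice. Both groups carried Sftpc-CreERT2, a tamoxifen-activated recombinase expressed from an AT2 promoter, and Rosa26-mTmG, which turns recombined cells green, and both received tamoxifen and bleomycin. The controls thus also carried Cre and 1 floxed Alkbh5 allele. The labels number the replicates without naming the animals, so p-values measure only the spread between these libraries. The question was whether AT2 cells without Alkbh5, an RNA m6A demethylase, held more transcripts of the division machinery during repair.

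A cell enters mitosis when Cdk1 bound to cyclin B is switched on, with polo and Aurora kinases driving spindle assembly. The checkpoint holds anaphase back until kinetochores are attached, the anaphase-promoting complex then destroys cyclin B and securin, and cytokinesis proteins divide the cell. The genes are transcribed late in the cycle and are silent in resting cells, so that their RNA level in a bulk sample follows the share of dividing cells as well as the level per cell. These 2 cannot be told apart here. Mature AT2 cells divide rarely in the uninjured lung and re-enter the cycle after injury.

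Many late cell cycle genes share promoter elements, and these genes did too. A known pair is the cell cycle genes homology region (CHR, searched as TTTGAA on either strand) and the CCAAT box bound by NF-Y (searched as CCAAT on either strand). Promoter windows from RefSeq on GRCm38.p6, running from 250 bases before to 50 bases after the annotated start, were at hand for 33 of the 40 genes. Of these, 26 (78.8%) held a CHR match, against 15.3% of the 12798 tested genes with a window and 20.2% of all 27025 genes with one. A CCAAT box was found in 26 of the 33 (78.8%, against 41.2% of the tested genes), and both motifs in 23 (69.7%, against 5.93%). The CHR match nearest to the start began within 60 bases before it or after it in 23 of the 26. Of 31 DNA replication and G1/S genes with a window, 19.4% held a CHR match, and 35.5% held an E2F motif (TTTGGCGC or TTTCGCGC on either strand), which 3.03% of the mitosis and G2/M genes held. Among 68 further mitosis genes, CHR matches were found in 34. A match is a run of letters in a window, not a measured binding site. The annotated start of a window can lie inside the RefSeq span of its gene. On the minus strand, the Kif2c window (chr4:117178723-117179022) lay within a span that reached 117182624. The Mki67 span reached 135716450, upstream of the start used for its window. Positions of matches hold for the start of the window only.

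**Figure D1:**
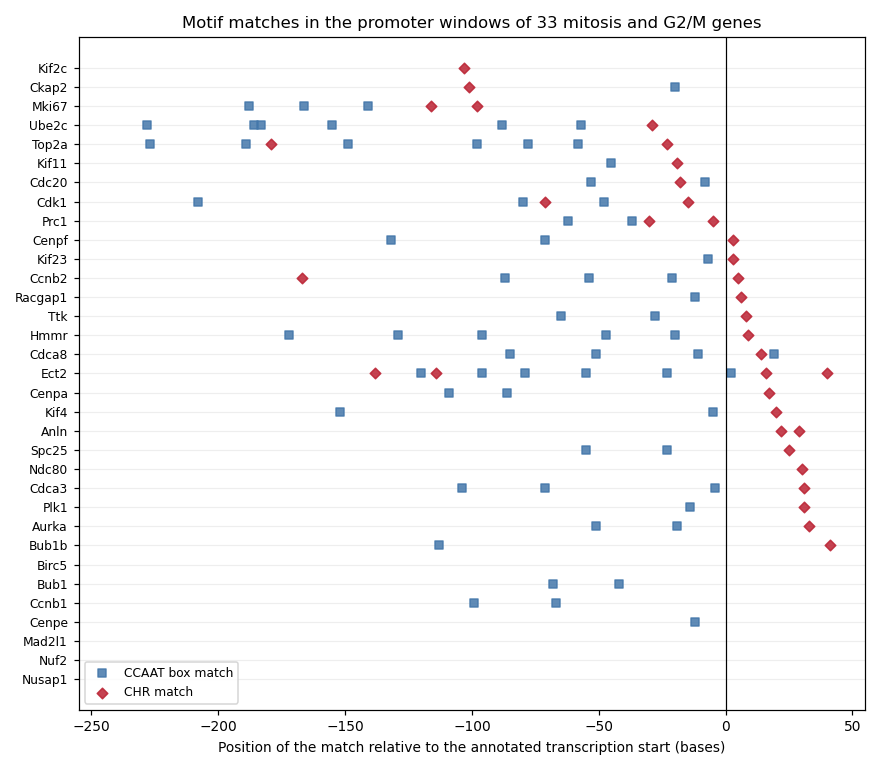
Positions of CHR and CCAAT matches, in bases from the annotated start, in the promoter windows of 33 genes, 1 gene a row, with all windows of a gene drawn together. CHR matches cluster near the start in most rows, and 7 genes at the bottom have none.

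The windows of 6 genes are shown because they are the 4 genes with a window and an unadjusted p under 0.05 (Mki67, Cenpf, Ckap2 and Kif23) and the 2 that form the mitotic kinase (Cdk1 and Ccnb1). All lie on the minus strand of GRCm38.p6 and are printed 5′ to 3′ as the gene is read, with CHR and CCAAT matches in capitals. They cover chr7:135716330-135716629 (Mki67), chr1:189688037-189688336 (Cenpf), chr8:22185770-22186069 (Ckap2), chr9:61946750-61947049 (Kif23), chr10:69352863-69353162 (Cdk1) and chr13:100786437-100786736 (Ccnb1).
Mki67: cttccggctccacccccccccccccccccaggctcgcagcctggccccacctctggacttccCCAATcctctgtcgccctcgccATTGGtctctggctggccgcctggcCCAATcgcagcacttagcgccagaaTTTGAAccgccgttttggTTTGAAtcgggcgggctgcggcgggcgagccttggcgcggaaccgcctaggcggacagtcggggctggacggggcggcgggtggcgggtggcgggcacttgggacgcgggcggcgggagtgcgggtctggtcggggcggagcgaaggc
Cenpf: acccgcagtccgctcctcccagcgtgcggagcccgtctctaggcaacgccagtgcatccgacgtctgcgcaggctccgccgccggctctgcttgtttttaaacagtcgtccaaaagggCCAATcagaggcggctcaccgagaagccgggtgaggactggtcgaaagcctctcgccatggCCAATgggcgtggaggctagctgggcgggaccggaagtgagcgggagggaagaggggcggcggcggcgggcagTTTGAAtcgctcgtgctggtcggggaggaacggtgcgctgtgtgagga
Ckap2: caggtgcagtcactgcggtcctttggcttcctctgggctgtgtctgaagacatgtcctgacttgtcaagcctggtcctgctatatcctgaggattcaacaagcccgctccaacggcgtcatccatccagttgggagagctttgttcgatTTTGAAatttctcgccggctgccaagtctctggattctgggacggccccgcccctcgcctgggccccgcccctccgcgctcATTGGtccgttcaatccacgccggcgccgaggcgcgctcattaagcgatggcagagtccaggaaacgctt
Kif23: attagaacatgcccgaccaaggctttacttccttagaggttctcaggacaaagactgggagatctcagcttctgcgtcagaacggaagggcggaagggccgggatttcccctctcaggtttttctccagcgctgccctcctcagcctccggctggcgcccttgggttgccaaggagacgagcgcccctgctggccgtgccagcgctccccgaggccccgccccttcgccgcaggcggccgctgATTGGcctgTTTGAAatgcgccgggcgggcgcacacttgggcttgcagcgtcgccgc
Cdk1: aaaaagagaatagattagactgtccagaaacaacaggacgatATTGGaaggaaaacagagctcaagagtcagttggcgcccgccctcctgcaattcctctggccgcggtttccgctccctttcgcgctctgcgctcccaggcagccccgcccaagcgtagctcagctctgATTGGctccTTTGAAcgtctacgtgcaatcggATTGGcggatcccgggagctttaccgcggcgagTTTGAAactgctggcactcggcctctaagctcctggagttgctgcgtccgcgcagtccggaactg
Ccnb1: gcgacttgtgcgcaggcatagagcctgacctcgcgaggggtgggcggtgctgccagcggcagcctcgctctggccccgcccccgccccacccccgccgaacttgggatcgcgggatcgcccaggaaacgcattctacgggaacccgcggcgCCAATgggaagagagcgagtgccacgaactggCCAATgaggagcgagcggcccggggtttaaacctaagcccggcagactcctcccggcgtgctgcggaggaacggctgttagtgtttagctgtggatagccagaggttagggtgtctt
Mki67 carried 2 CHR matches, which began at -116 and -98, counted from the annotated start as base 1, and Cdk1 carried 2, at -71 and -15. In Cenpf and Kif23 the match began at base 3 of the transcript, and in Ckap2 at -101. The Ccnb1 window held 2 CCAAT boxes and no TTTGAA. The median log2 fold change was 0.83 for the 26 genes with a CHR match (25 of them tested) and 0.96 for the 7 without.

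Levels are given as normalized counts (CPM, scaled by the TMM-adjusted library size), and a count of 3, the floor below which a gene was taken as not detected, was 0.128 to 0.177 CPM. The libraries held 18144865 to 20811757 counts. Alkbh5 itself had 81.7 and 152 CPM in Ctrl, against 19.3 and 36.6 in A5-CKO (log2 fold change -2.06; edgeR, adjusted p = 0.528). The mitosis and G2/M genes were low to moderate in all 4 libraries. Their raw counts ranged from 0 to 1647, and their median level was 5.97 and 3.14 CPM in the Ctrl libraries, 5.14 for A5-CKO 1 and 12.7 for A5-CKO 2. Levels per kilobase used the longest annotated transcript of each gene, so their ranking depends on that choice. On that scale, the highest mean levels were those of Cdc20 (14.1 CPM per kb), Smc4 (8.72) and Ccna2 (6.30). The lowest were those of Kif11 (0.0335), Cenpe (0.325) and Cenpf (0.330).

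Most of these genes were highest in 1 A5-CKO library. A5-CKO 2 was the highest of the 4 libraries for 35 of the 40 genes, whereas it was the highest for 20.2% of all 16661 genes tested. A5-CKO 1 was the highest for the other 5 (Bub1, Cenpe, Cenpf, Kif11 and Smc4), against 27.8% of all genes, and no gene was highest in a Ctrl library. Ctrl 2 was the lowest for 30 of the 40, against 25.9%. With total counts in place of TMM factors the 35 and the 5 did not change, while 29.9% of all genes were then highest in A5-CKO 2. The order was A5-CKO 2, then Ctrl 1, then both others for 23 genes.

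**Figure D2:**
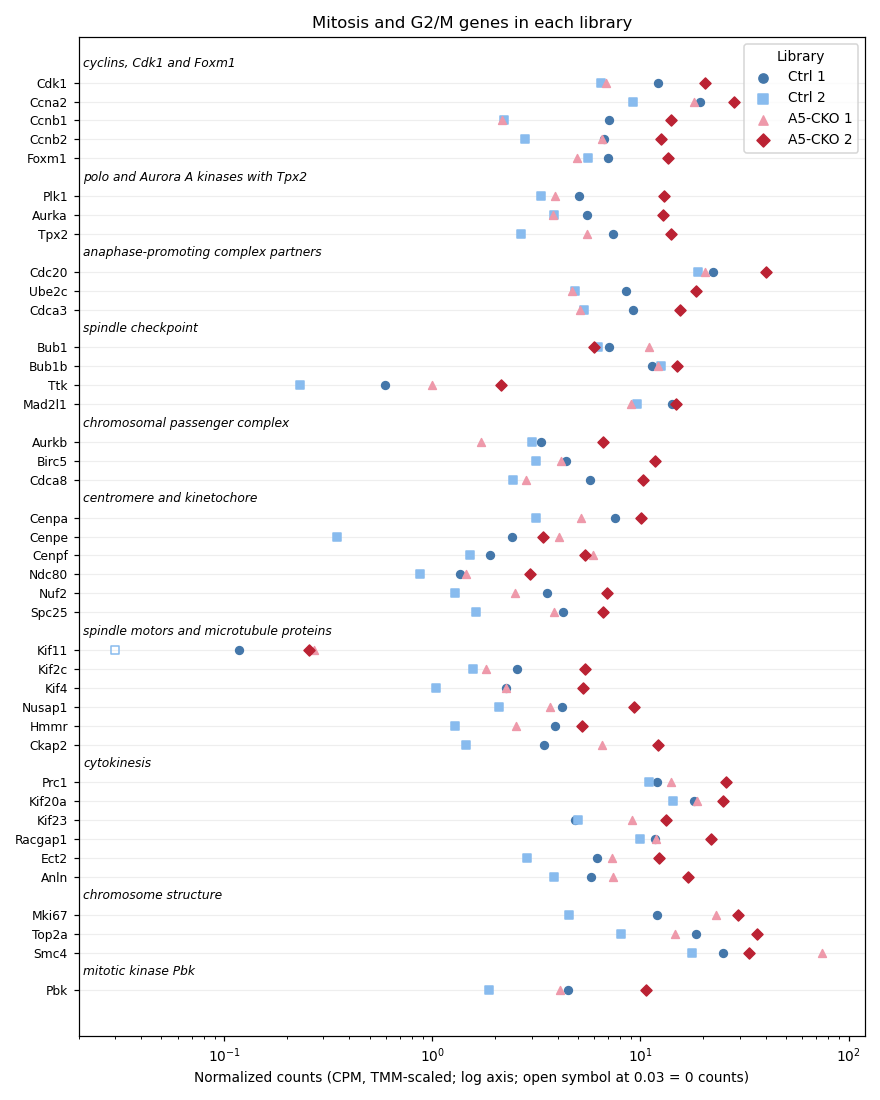
Normalized counts (CPM, log axis) of the 40 genes in each library, grouped by role; the open symbol marks a count of 0. The A5-CKO 2 diamonds lie farthest right in 35 rows, while A5-CKO 1 triangles and Ctrl 1 circles often lie side by side.

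Libraries of the same genotype differed in these genes, and ratios between genotypes depended on the pair of libraries. Over the 39 genes tested, the median ratio of Ctrl 1 to Ctrl 2 was 1.76, and that of A5-CKO 2 to A5-CKO 1 was 2.06. Between genotypes, A5-CKO 2 was at a median of 1.95 times Ctrl 1 and 3.76 times Ctrl 2, whereas A5-CKO 1 was at 1.75 times Ctrl 2 and 0.917 times Ctrl 1. Over all genes tested these 6 median ratios lay between 0.936 and 1.01. Counting all 40 genes, A5-CKO 2 was above Ctrl 1 in 39 (50.7% of all genes tested) and above Ctrl 2 in 39 (46.1%). A5-CKO 1 was above Ctrl 2 in 32 (47.7%) but above Ctrl 1 in 17 (50.7%), which is near the share of all genes. Ctrl 1 was above Ctrl 2 in 38 (50.5%), and A5-CKO 2 above A5-CKO 1 in 35 (46.6%).

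**Figure D3:**
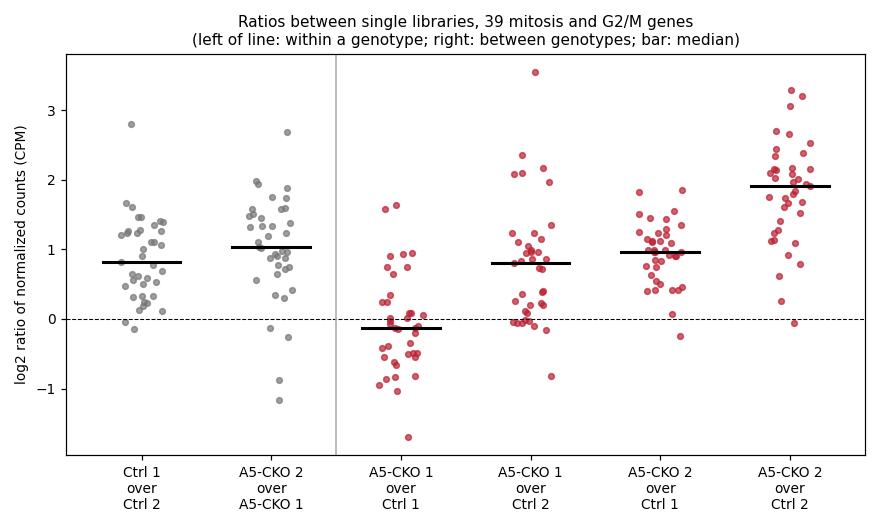
Log2 ratios of normalized counts between single libraries for the 39 genes tested, with within-genotype pairs left of the line and between-genotype pairs right of it; bars are medians. The medians of Ctrl 1 over Ctrl 2 and A5-CKO 1 over Ctrl 2 are alike, and only A5-CKO 1 over Ctrl 1 has a median below 0.

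In the test between genotypes, no gene passed. In the quasi-likelihood test of edgeR, p-values being adjusted by Benjamini-Hochberg, no mitosis or G2/M gene reached an adjusted p of 0.05 over all 16661 genes (0.0% of all genes passed), and the smallest adjusted p was 0.528. DESeq2 with default filtering called 0.385% of all genes and none of these, with a smallest adjusted p of 0.182. At an unadjusted p under 0.05, edgeR found 5 of the 39 higher in A5-CKO and 0 lower, against 4.48% and 4.71% of all genes, and DESeq2 with default filtering found 6 of 40 higher (3.82% of all genes). The log2 fold change was above 0 for 38 of the 39 (49.1% of all genes), with a median of 0.83 against -0.02 for all genes. Total counts moved the median of all genes to 0.30 and that of the 39 to 1.14. The 5 genes were Mki67 (chr7:135689784-135716450), Cenpf (chr1:189640606-189688107), Ckap2 (chr8:22168149-22185819), Smc4 (chr3:69004738-69034623) and Kif23 (chr9:61917277-61946810), with gene spans from RefSeq on GRCm38.p6, the assembly of mm10. Ttk and Cenpe reached the filter in only 1 Ctrl library and so were tested because of their A5-CKO levels, and Kif11, with 2, 0, 6 and 6 counts, was not tested. Without a filter all 40 genes were fitted, and the same 5 had an unadjusted p under 0.05 (2.91% of all genes higher).

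Which library was left out decided the count. The 5 became 12 without A5-CKO 1, 3 without A5-CKO 2 (Cenpf, Mki67 and Smc4), 5 without Ctrl 1 and 0 without Ctrl 2, with 2.75%, 4.94%, 5.85% and 2.71% of all genes higher in these fits. The median log2 fold change of the 39 was 1.40, 0.15, 1.44 and 0.49 in the same order. Without A5-CKO 2, 25 of the 39 were above 0, against 46.2% of all genes.

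**Figure D4:**
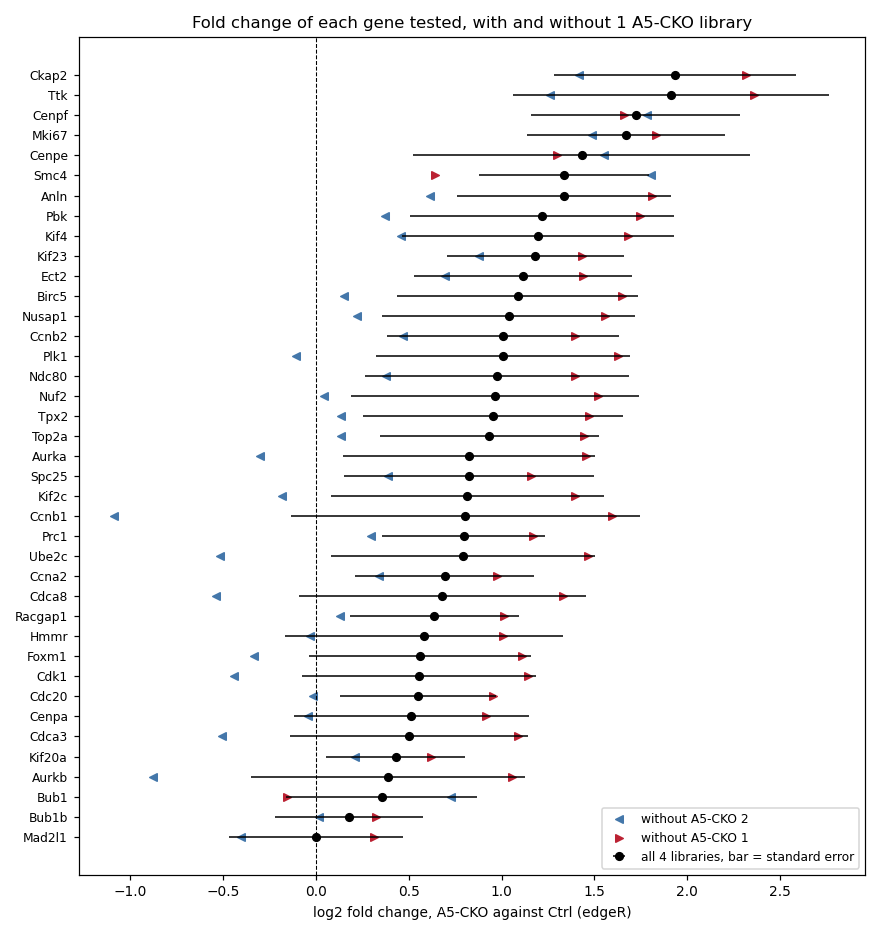
Log2 fold change of A5-CKO against Ctrl for each of the 39 genes tested, with its standard error (edgeR, all 4 libraries), and the value without A5-CKO 1 or without A5-CKO 2. Points without A5-CKO 2 fall below 0 for 14 genes. Ckap2, Cenpf, Mki67 and Ttk are among the genes above 1 with either A5-CKO library left out.

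Cyclins and their kinase came first in the order of the cell cycle. Cdk1, the mitotic kinase, had 12.1 and 6.46 CPM in Ctrl, against 6.84 and 20.5 in A5-CKO. Ccnb1, its cyclin B1 partner, had 7.04 and 2.21 in Ctrl, against 2.17 and 13.98 in A5-CKO, so that each genotype held 1 high and 1 low library. Foxm1, the factor that drives late cell cycle transcription, had 6.98 and 5.59 in Ctrl, against 4.98 and 13.5 in A5-CKO. Their log2 fold changes were 0.56 (standard error 0.63), 0.80 (0.94) and 0.56 (0.60), and all 3 turned negative without A5-CKO 2, at -0.44, -1.09 and -0.33. Ccna2 (cyclin A2) and Ccnb2 (cyclin B2) were also highest in A5-CKO 2. With TMM factors all 5 genes of this group overlapped between genotypes. With total counts 2 of the 5 had both A5-CKO libraries above both Ctrl libraries (34.8% of all genes).

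The mitotic kinases and the partners of the anaphase-promoting complex had the same pattern. Plk1, the polo kinase of spindle assembly, had 5.09 and 3.32 CPM in Ctrl, against 3.89 and 13.0 in A5-CKO, which gave a log2 difference of 1.01 (standard error 0.69; edgeR, adjusted p = 0.616). It was 1.63 without A5-CKO 1 and -0.11 without A5-CKO 2. Aurka (Aurora A) and its activator Tpx2 followed it, with sums over these 3 genes of 18.04, 9.83, 13.2 and 39.8 CPM (both Ctrl libraries first, then both A5-CKO libraries). Cdc20, which activates the anaphase-promoting complex, Ube2c, its ubiquitin-conjugating enzyme, and Cdca3 summed to 40.03, 29.0, 30.1 and 73.7. The chromosomal passenger genes Aurkb (Aurora B), Birc5 (survivin) and Cdca8 (borealin) summed to 13.4, 8.61, 8.69 and 28.7. In these 3 groups A5-CKO 1 summed to less than Ctrl 1, and none of the 9 genes separated the genotypes.

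The spindle checkpoint genes had the lowest median log2 fold change of the groups, 0.27. Mad2l1, the MAD2 checkpoint protein, had 14.2 and 9.66 CPM in Ctrl, against 9.01 and 14.8 in A5-CKO, with a log2 fold change that rounded to 0.0 (standard error 0.47). Bub1b (BUBR1) had 11.4 and 12.6 in Ctrl, against 12.1 and 15.0 in A5-CKO, which gave a log2 difference of 0.18 with standard error 0.40. Bub1, a checkpoint kinase, had 7.10 and 6.23 in Ctrl, against 11.0 and 5.98 in A5-CKO, and was the gene of the 40 for which A5-CKO 2 was lowest. Its log2 fold change was 0.35 (standard error 0.51), and it turned to -0.15 without A5-CKO 1. Ttk, the MPS1 kinase, was far lower, at 0.591 and 0.233 in Ctrl, against 0.996 and 2.14 in A5-CKO. Its 4 to 50 raw counts gave log2 fold change 1.91 (standard error 0.85; edgeR, adjusted p = 0.528).

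Among centromere and kinetochore genes, Cenpf and Cenpe stood apart from the A5-CKO 2 pattern, both being highest in A5-CKO 1. Cenpf, a large kinetochore protein that builds up in G2, had 1.89 and 1.51 CPM in Ctrl, against 5.89 and 5.39 in A5-CKO, so that both A5-CKO libraries were high and close to each other. Means were 1.70 ± 0.268 for Ctrl and 5.64 ± 0.353 for A5-CKO (SD, n = 2 each), a log2 difference of 1.72 (standard error 0.56; edgeR, adjusted p = 0.528). It lay between 1.55 and 1.97 when any 1 library was dropped. Cenpe, a kinetochore motor, had 2.42 and 0.349 in Ctrl, against 4.07 and 3.42 in A5-CKO. The centromere histone Cenpa and the Ndc80 complex genes Ndc80, Nuf2 and Spc25, which hold microtubules, had log2 fold changes of 0.51 to 0.98 and were highest in A5-CKO 2 and lowest in Ctrl 2.

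Spindle proteins were led by Ckap2, a microtubule-stabilizing protein. Ckap2 had 3.43 and 1.45 CPM in Ctrl, against 6.52 and 12.2 in A5-CKO, with both A5-CKO libraries above both Ctrl libraries. Its log2 fold change, 1.93 (standard error 0.65; edgeR, adjusted p = 0.528), was the largest of the 39 genes, and it lay between 1.41 and 2.77 when any 1 library was dropped. Kif4, a chromosome-bound kinesin, had 2.25 and 1.05 in Ctrl, against 2.26 and 5.30 in A5-CKO. Nusap1, Hmmr and the microtubule-depolymerizing kinesin Kif2c had log2 fold changes of 0.58 to 1.04, and their libraries overlapped. Kif11, the kinesin that pushes spindle poles apart, had 0 to 6 counts a library, and no fold is given.

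With TMM factors the cytokinesis genes were the one group in which all genes separated the genotypes. The lower A5-CKO library exceeded the higher Ctrl library for 6 of 6 (20.3% of all genes), also by total counts (34.8%) and by RLE factors (21.7%). Kif23 (MKLP1, a centralspindlin kinesin) had 4.85 and 5.003 CPM in Ctrl, against 9.05 and 13.3 in A5-CKO, which gave a log2 difference of 1.18 with standard error 0.48 (adjusted p = 0.528, edgeR). Anln (anillin, a scaffold of the contractile ring) had 5.79 and 3.84 in Ctrl, against 7.38 and 16.9 in A5-CKO, which gave a log2 difference of 1.33 with standard error 0.58. Ect2, the exchange factor that activates RhoA at the midzone, had 6.15 and 2.85 in Ctrl, against 7.29 and 12.2 in A5-CKO. Prc1, which bundles midzone microtubules, had 11.9 and 11.0 in Ctrl, against 14.1 and 25.8 in A5-CKO. For Kif20a and Racgap1 the separation was narrow, since the lower A5-CKO library was 1.04 and 1.01 times the higher Ctrl library.

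Over all 40 genes, 15 had both A5-CKO libraries above both Ctrl libraries and 0 had both below, while 20.3% and 23.5% of all genes tested did so. With total counts 24 of the 40 were separated (34.8% of all genes above and 10.1% below), and with RLE factors 14 (21.7% and 22.1%). In 4 of the 15 (Ndc80, Kif20a, Racgap1 and Kif4) the gap between the nearest libraries was under 10%. By role the 15 were 6 of 6 cytokinesis, 3 of 6 centromere and kinetochore and 3 of 6 spindle genes. The rest were 2 of 3 chromosome structure and 1 of 4 checkpoint genes, with 0 of the other 15. Total counts gave 3 of 4 checkpoint genes and 4 of 6 each of the kinetochore and spindle genes. They also gave 2 of 5 cyclin, Cdk1 and Foxm1 genes, and Pbk. Anaphase-promoting complex and chromosomal passenger genes then had 1 of 3 each, and polo and Aurora A genes 0 of 3. RLE factors changed only the spindle genes, to 2 of 6. The exons of Prc1, Kif20a and Kif4 share bases with a gene on the opposite strand (911 with Rccd1, 1271 with Cdc23 and 832 with Pdzd11 in GENCODE M21). Whether counting used strand is not given in the sources used here, so reads of such pairs are uncertain, and 9 of the 40 genes have such an overlap.

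Chromosome structure genes had summed levels of 55.6 and 30.3 CPM in the Ctrl libraries, 112 for A5-CKO 1 and 98.99 for A5-CKO 2. Mki67, the proliferation marker Ki-67 that coats mitotic chromosomes, had 12.004 and 4.54 CPM in Ctrl, against 23.2 and 29.4 in A5-CKO. Its log2 fold change was 1.67 (standard error 0.53; edgeR, adjusted p = 0.528), and its lower A5-CKO library was 1.93 times its higher Ctrl library. Smc4, a condensin core subunit, had 25.0 and 17.7 in Ctrl, against 74.6 and 33.3 in A5-CKO, which gave a log2 difference of 1.34 with standard error 0.46. It was 0.64 without A5-CKO 1, the smallest value among its fits without 1 library. Top2a, the topoisomerase that untangles sister chromatids, had 18.6 and 8.03 in Ctrl, against 14.6 and 36.2 in A5-CKO, so that A5-CKO 1 lay between the Ctrl libraries. Its log2 fold change of 0.93 (standard error 0.59) was 1.45 without A5-CKO 1 and 0.13 without A5-CKO 2. The kinase gene Pbk followed Top2a, with 4.49 and 1.86 in Ctrl, against 4.12 and 10.7 in A5-CKO.

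Nuclear RNA was highest in A5-CKO 1 and was also raised in A5-CKO 2. The nuclear RNA list (Malat1, Neat1, Xist, Meg3 and Kcnq1ot1) summed to 6848 CPM in A5-CKO 1 and 2457 in A5-CKO 2, against 1340 and 1252 in Ctrl. Meg3 was listed at 0 in all 4 libraries. For Malat1, Neat1 and Xist the lower A5-CKO library exceeded the higher Ctrl library, while Kcnq1ot1 overlapped between genotypes. Log2 fold changes of these 3 were 1.87, 1.74 and 2.14 (edgeR, unadjusted p under 0.05, adjusted p = 0.528). All genes of the list but Meg3 were highest in A5-CKO 1, as were 5 of the 40 genes. Over the 39 genes, the A5-CKO 1 minus Ctrl difference in log2 level went with lower GC content of the transcript (Spearman's rho -0.54, and -0.38 over 15237 genes tested), while for A5-CKO 2 minus Ctrl rho was -0.04 over the 39 and -0.29 over all. Genes share a library and are not independent, so these are descriptions. When GC content and length were corrected for, an alternative added with the data in view, 1 of the 39 had an unadjusted p under 0.05 (Ckap2, log2 fold change 1.80), against 2.30% of all genes higher. In that fit the log2 fold change of Mki67 was 1.06, that of Cenpf 1.02, that of Kif23 1.03 and that of Smc4 0.85.

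Markers of some other cell types were, like most of these genes, higher in Ctrl 1 than in Ctrl 2 and in A5-CKO 2 than in A5-CKO 1. The 15 macrophage genes had summed levels of 3594 CPM (Ctrl 1), 700.1 (Ctrl 2), 586.4 (A5-CKO 1) and 2887 (A5-CKO 2). All 15 were higher in Ctrl 1 than in Ctrl 2 and in A5-CKO 2 than in A5-CKO 1, and none was listed at 0 in a library. Mesenchymal genes summed to 433.5, 157.8, 101.8 and 1130 CPM in the same order, with 9 of 9 tested highest in A5-CKO 2, and Cthrc1 at 0 in 1 library. Lymphocyte and plasma cell genes summed to 752.7, 142.4, 279.6 and 764.9, although only 3 of the 11 were higher in A5-CKO 2 than in A5-CKO 1. Transitional cell genes, which include the macrophage-expressed Fn1 and Lgals3, summed to 3914, 1323, 1857 and 4280 CPM, and all 8 were higher in Ctrl 1 than in Ctrl 2 and in A5-CKO 2 than in A5-CKO 1. Endothelial genes, at 133.3, 194.0, 119.2 and 184.4 CPM, and club and ciliated cell genes, at 3001, 2859, 2087 and 1365, did not have this order. AT1 genes summed to 1499, 1250, 1273 and 1293, with Aqp5 the largest part. All 6 tested were higher in Ctrl 1 than in Ctrl 2, but only 2 were higher in A5-CKO 2 than in A5-CKO 1. Their median log2 fold change was 0.69, and that of Aqp5 was -0.79. The lower A5-CKO library exceeded the higher Ctrl library for 4 of the 6 (20.3% of all genes). The reverse held for 1, Aqp5 (23.5% of all genes). The AT1 markers Ager (2, 6, 2 and 4 counts in the same order of libraries) and Pdpn (3, 0, 17 and 3) had too few reads to be tested. The genes of AT2 cells summed to 66479 and 92291 CPM in Ctrl, against 48903 and 40487 in A5-CKO, and the list includes Lyz2, which macrophages also express. The mitosis and G2/M genes summed to 312.9, 197.8, 348.6 and 566.4, of which Smc4 alone made up 25.0, 17.7, 74.6 and 33.3. While their sum was higher in A5-CKO 1 than in Ctrl 1, the median ratio of A5-CKO 1 to Ctrl 1 over the 39 genes was 0.917. The part of other cell types, and of nuclear RNA, in the levels of these genes was not tested.

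**Figure D5:**
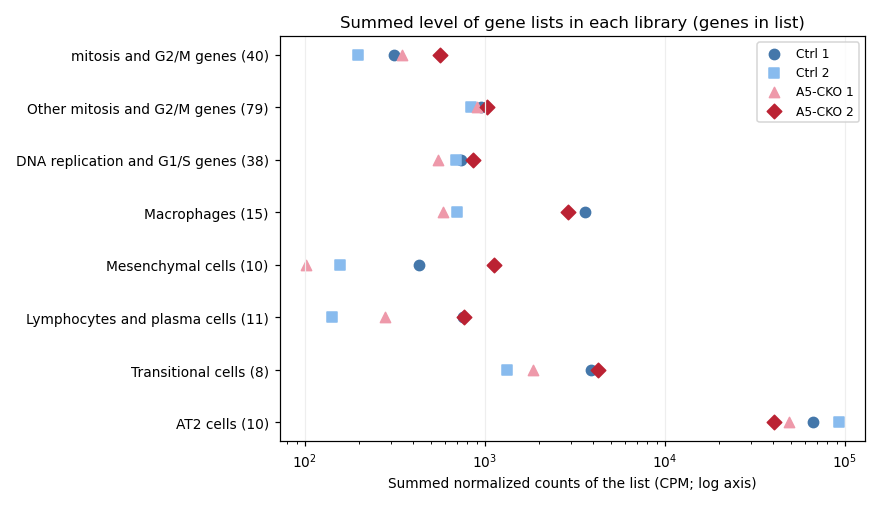
Summed normalized counts (CPM, log axis) of gene lists in each library, with the number of genes in each list. Macrophage, mesenchymal and lymphocyte sums are higher in Ctrl 1 and A5-CKO 2 than in Ctrl 2 and A5-CKO 1, and the mitosis and G2/M sum is highest in A5-CKO 2 and lowest in Ctrl 2.

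Other genes of the same program were looked at in a list of 79 further mitosis and G2/M genes, of which 75 were tested. Of these, 9 had an unadjusted p under 0.05 and were higher in A5-CKO and 0 were lower, none reached an adjusted p of 0.05 (edgeR), and their median log2 fold change was 0.73. A5-CKO 2 was the highest library for 52 of the 75, and 20.2% of all genes were highest there, while 4.48% of all genes were called higher at this p. The 3 with the smallest p were Knl1, the kinetochore scaffold, with 0.473 and 0.582 CPM in Ctrl, against 2.13 and 2.99 in A5-CKO, Stil, a centriole assembly protein, with 0.237, 0.349, 0.905 and 3.08, and Kif14, a cytokinesis kinesin, with 1.30, 0.291, 2.85 and 5.68. These rest on 4 to 22 counts in Ctrl libraries. Stil reached the filter in neither Ctrl library, Kif14 in Ctrl 1 only, and Knl1 was under it in Ctrl 1 and close to it in Ctrl 2. All 3 were thus tested because of their A5-CKO levels. With at least 10 counts required in every library, 6 genes of the list, not 9, were higher at this p. In the other direction the smallest p were those of Fzr1, Pttg1 and Pkmyt1, with log2 fold changes of -0.63, -0.76 and -0.63. Pttg1 (securin, the inhibitor of separase) had 62.5 and 53.1 CPM in Ctrl, against 47.3 and 20.9 in A5-CKO, so that it was lowest in the library in which most of the 40 genes were highest. Fzr1, the CDH1 activator that keeps the anaphase-promoting complex on in G1, had 67.4 and 59.6 in Ctrl, against 40.3 and 41.7 in A5-CKO.

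The DNA replication and G1/S genes were also mostly highest in A5-CKO 2. Of 37 tested, 26 were highest in A5-CKO 2 (20.2% of all genes) and 21 were lowest in A5-CKO 1 (25.6% of all genes), with a median log2 fold change of 0.19. None was higher in A5-CKO at an unadjusted p under 0.05 (4.48% of all genes), and 1, E2f2, was lower (4.71%). Rrm2, a subunit of ribonucleotide reductase, had 8.99 and 7.04 CPM in Ctrl, against 5.48 and 27.3 in A5-CKO. Of 13 subunits and partners of the DREAM, B-Myb and NF-Y complexes, which act at CHR and CCAAT elements, none had an unadjusted p under 0.05 in edgeR and the median log2 fold change was -0.14. Both A5-CKO libraries were below both Ctrl libraries for 6 of the 13 (23.5% of all genes) and above for 2 (20.3%). Mybl2 (B-Myb), with the highest log2 fold change of the 13, had 2.72 and 1.40 CPM in Ctrl, against 3.58 and 4.06 in A5-CKO. That log2 fold change was 0.89 (standard error 0.63). The lowest was that of Nfya, -1.29 (standard error 0.78), with 1.24 and 2.04 CPM in Ctrl, against 0.951 and 0.385 in A5-CKO.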

How the data were processed

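RNA-seq of sorted AT2 cells was available as 1 table of gene counts for 2 Ctrl and 2 A5-CKO libraries. Per the labels and the methods, the authors trimmed reads (Trim Galore 0.6.10), removed ribosomal RNA reads, aligned to mm10 (patch release p6) with HISAT2 2.2.1, removed duplicates, and deposited whole-number read counts per gene from featureCounts 2.0.3, not normalized. The methods give the counting under m6A sequencing, and it was taken to apply here. The columns name WT and KO with a number and were matched to titles by genotype and replicate number. Reads that fit a near-identical copy, such as a pseudogene, are uncertain.

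The comparison used edgeR 4.0.16 in R 4.3.3 (TMM, filterByExpr, quasi-likelihood test, Benjamini-Hochberg over 16661 genes). Standard errors are the log2 fold change over the square root of F. Alternatives used DESeq2 1.42.0, limma 3.58.1 (voom), other scalings and filters, a replicate block, and each library left out. The fit was tested on simulated data. Lengths and GC content are those of the longest GENCODE M21 transcript of each gene. Exons are also from GENCODE M21, and promoters from RefSeq. All 40 genes are reported by role, with values for each library for the genes with an unadjusted p under 0.05, those that separate the genotypes (up to 10, by p), the 3 least different, the 3 lowest, and 6 chosen by name. Genes, lists and tests were chosen with earlier results of these data known. The floor covers counting error only. With 2 against 2 libraries, a permutation test cannot give a two-sided p under 0.333.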

Additional observations from a re-analysis of the deposited data

How the results depend on the processing

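With 2 libraries a group, a BCV of 41.6% and low counts, small differences were not detectable, and large ones could also go uncalled. Alkbh5 itself, at a log2 fold change of -2.06, had an adjusted p of 0.528 (edgeR). Of the 39 genes tested, 5 had an unadjusted p under 0.05 and were higher in A5-CKO, and this became 8 with total counts, 12 with a crossed block, 1 with the GC content and length correction, and 0 to 12 when any 1 library was dropped. Their median log2 fold change lay between 0.15 and 1.44 then. For the 75 other mitosis genes, 9 higher became 16 with total counts, 3 with the replicate block, 14 crossed, 3 corrected and 1 to 10 with a library dropped, and 0 lower became 1 crossed, 1 corrected and 0 to 1. For all genes, 746 higher became 1706, 396, 1321, 350 and 452 to 975 in that order, and 784 lower became 493 with upper-quartile factors, 171 with total counts, 358 with the block, 1261 crossed and 280 to 949 with a library dropped. Same-numbered libraries did not deviate together (correlation -0.36), so the numbers were not taken as pairing. The replicate block left 4 of the 5, without Kif23. The crossed pairing, added after seeing the data, gave 1 gene of the 39 with an adjusted p under 0.05. Of 622 gene results under an alternative, 597 kept their direction and side of the adjusted p threshold, 24 reversed direction and 1 came to pass. As no gene passed in the main fit, the side of the threshold could hardly change, and the 597 mostly describe direction. Bub1 turned to -0.050 with the correction. Mad2l1 turned to 0.046 (RLE), 0.093 (upper quartile), 0.31 (total counts), 0.046 (DESeq2 on the same genes), 0.031 (DESeq2 default) and 0.043 (at least 10 counts). With a library dropped, log2 fold changes ranged from -0.44 to 1.17 for Cdk1, -1.09 to 1.96 for Ccnb1, -0.33 to 1.11 for Foxm1, -0.11 to 1.63 for Plk1, -0.30 to 1.45 for Aurka, -0.017 to 0.95 for Cdc20, -0.52 to 1.46 for Ube2c, -0.50 to 1.09 for Cdca3, -0.15 to 0.73 for Bub1, -0.40 to 0.39 for Mad2l1, -0.88 to 1.05 for Aurkb, -0.54 to 1.52 for Cdca8, -0.045 to 1.36 for Cenpa, -0.18 to 1.40 for Kif2c and -0.031 to 1.68 for Hmmr. The cause was not tested.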
